A study of Mus musculus with 20 samples.

Results

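The quantity described here is the difference between the smoke responses of miR-155 knockout and wild-type alveolar macrophages, (knockout smoke minus knockout air) minus (wild-type smoke minus wild-type air), for every gene. It used 20 of 20 libraries and 13225 of 13225 genes. A positive value means that the level moved up more, or down less, with smoke in the knockout than in the wild type. Alveolar macrophages had been sorted as CD45+SiglecF+CD11c+ cells from wild-type C57BL/6 mice and from miR-155 knockout mice of the strain B6.Cg-Mir155tm1.1Rsky/J. Mice of each genotype had breathed air or cigarette smoke for 4 weeks, which gives wild-type air, wild-type smoke, knockout air and knockout smoke, with 5 libraries in each. Each library carries a code of its own (Ia3 to IVb4). The labels do not say that a code is 1 animal, so the tests measure the spread between libraries. The knockout is present in every cell of the animal, so a difference can arise in the macrophages or elsewhere in the mouse, and the design cannot tell these apart.

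MicroRNAs pair through their seed, bases 2 to 8, with sites in the 3′UTRs of messenger RNAs and lower the stability and translation of those messengers. miR-155 is processed from the transcript Mir155hg, is induced in macrophages by Toll-like receptor and NF-kB signalling, and is known to repress brakes on inflammatory signalling such as Socs1 and Inpp5d and the heme-responsive repressor Bach1. Alveolar macrophages clear surfactant lipid and inhaled particles, and tobacco smoke is known to load them with lipid and to raise their lysosomal and matrix-degrading genes. The mature miRNAs of the deleted locus are shown because the seed defines the sites searched for further on, with the seed in capitals (RefSeq, GRCm38.p6).
mmu-miR-155-5p: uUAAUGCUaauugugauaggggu
mmu-miR-155-3p: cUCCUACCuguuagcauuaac
They lie on the plus strand at chr16:84714143-84714165 and chr16:84714182-84714202. The sequences below are 30-base stretches of the longest annotated 3′UTR of the 3 reported targets that held an 8-base seed match and had an interaction at an unadjusted p under 0.05, with the match AGCATTAA in capitals (GENCODE transcripts, GRCm38).
Bach1: atgaacagtttAGCATTAAgggttaatttt
Trp53inp1: acactaacacaAGCATTAAcaggtgatttt
Tcf7l2: taaggatcagtAGCATTAAcaaaacttgct
The Bach1 stretch is at chr16:87732177-87732206, that of Trp53inp1 at chr4:11170418-11170447 and that of Tcf7l2 at chr19:55932820-55932849, all on the plus strand.

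Libraries held 6885680 to 11952088 reads in genes. The knockout air libraries IIIb2, IIIb3 and IIIb4 had no read for 1645, 1524 and 1451 genes, and the other libraries lacked reads for 259 to 1224. All 28 listed alveolar macrophage markers had values, and their summed level ran from 37960 to 44590 CPM, the reads of a gene scaled to a total of 1e6 per library, over all libraries. Mir155hg, the miR-155 host transcript, had 0 to 21 reads per library. Its reads were 0, 0, 0, 1 and 1 in wild-type air, 0, 21, 6, 4 and 17 in wild-type smoke, 0, 10, 0, 0 and 15 in knockout air, and 5, 2, 0, 0 and 1 in knockout smoke. The labels do not say which bases of the locus are deleted, so no check of the genotype was made from them. The interaction of Mir155hg was -3.17 (95% interval -6.59 to 0.25, log2 CPM), with an adjusted p = 0.55.

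No gene had a genotype-dependent smoke response at an adjusted p under 0.05: 0 of 13225 genes (0%) were called by limma with Benjamini-Hochberg adjustment over all genes. At an unadjusted p under 0.05 there were 1302 genes (9.84%), of which 733 (5.54%) were positive and 569 (4.3%) negative. The genes nearest the threshold were Ube3a, Klhl24 and Gm4285, each with an adjusted p = 0.051. Leaving out 1 library changed the count of called genes to 42 without the wild-type smoke library IIa5, 19 without the knockout air library IIIa5 and 10 without IIIb1. Without Ib2, IIa1, IIb3 or IVa2 it was 1, and without any other single library it was 0. By limma with voom weights on the recovered read counts, 0 genes were called and 1267 had an unadjusted p under 0.05. The same libraries gave many calls for smoke itself, with 2968 genes (22.4%) called in the wild type and 2051 (15.5%) in the knockout. The genotypes differed at 55 genes (0.416%) in air and at 209 (1.58%) in smoke.

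Most differences were small and well bounded. Among the 8907 genes with a mean of at least 3 log2 CPM, the median interaction was 0.009 and the middle 90% lay between -0.41 and 0.43 log2 CPM. For 7957 of those genes (89.3%) the whole 95% interval lay within 1 log2 unit of 0, that is, within a 2-fold difference of the smoke responses. Among the 4318 genes of lower mean, only 57 (1.3%) were bounded that closely, and the median half-width of the interval was 2.53. For a typical gene of low level, an estimate smaller than that left 0 inside its unadjusted interval. The parts of depth and of spread between libraries in these widths were not tested.

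The smoke responses of the genotypes ran along each other, with Pearson's r = 0.789 across the 8907 genes. Genes are not independent replicates, and r is given as a description. The slope of the knockout response on the wild-type response was 0.707, and that of the wild-type response on the knockout response 0.881. Each slope is lowered by the error of the response on its x axis. The SD of the response over these genes was 0.423 in the wild type and 0.378 in the knockout.

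**Figure D1:**
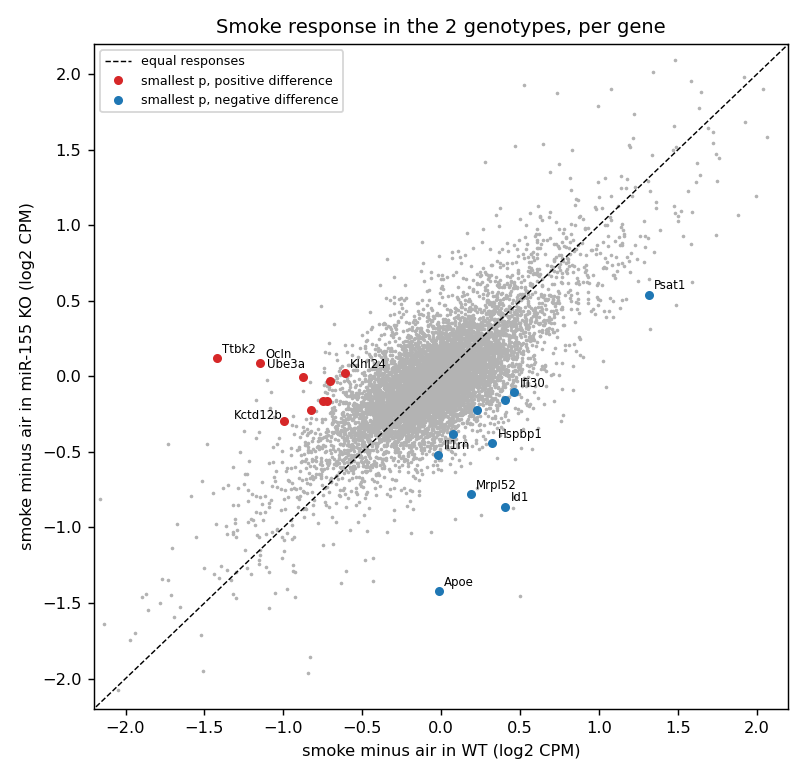
Each grey point is 1 of the 8907 genes with a mean of at least 3 log2 CPM, placed by its mean smoke-minus-air difference in wild type (x axis) and miR-155 knockout (y axis), both in log2 CPM; 31 genes lie beyond the axes. The dashed line marks equal responses. Red and blue points are the genes named by smallest p with a positive (above the line) or negative (below the line) difference. None of them passed the adjusted threshold.

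Genes that smoke lowered tended to be lowered less in the knockout. The test of the smoke effect averaged over the genotypes called 4074 genes (30.8%). In a balanced design that average is independent of the interaction only where the groups have equal spread. Here the SD was largest in wild-type smoke, so choosing genes by the average may favour 1 sign of the interaction. Of the 2277 genes that the test called lower with smoke, 1483 (65.1%) had a positive interaction. The median interaction over all genes was 0.023. The 2277 genes had a median response of -0.415 log2 CPM in the wild type and -0.331 in the knockout. Their mean level was 6.071 ± 0.019 log2 CPM in wild-type air, 5.518 ± 0.048 in wild-type smoke, 6.086 ± 0.023 in knockout air and 5.617 ± 0.022 in knockout smoke (SD, n = 5 each). The difference of the responses in that level was 0.084 ± 0.027 (SE). The median interaction of these genes, 0.081, was 0.047 once a trend on transcript length had been removed from each library, an alternative chosen after seeing the data.

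For the 1797 genes that smoke raised on average, the difference was of a similar size and opposite sign, but within the spread of the libraries. Their median response was 0.558 log2 CPM in the wild type and 0.495 in the knockout, and 1066 of them (59.3%) had a negative interaction. The mean level of the group gave a difference of -0.087 ± 0.094 (SE) log2 CPM. The SD of that level was largest in knockout air, at 0.153. At an unadjusted p under 0.05, 182 of the raised genes were negative and 77 positive. Among the 733 positive genes at an unadjusted p under 0.05, smoke was called in the wild type only, and lower, for 289, and in the knockout only, and higher, for 107. It was called in both, in the same direction, for 92, and in neither for 245. Among the 569 negative genes, smoke was called in the wild type only, and higher, for 222. It was called in the knockout only, and lower, for 102, and in neither for 191. The classes follow in part from choosing genes by this difference, which is made of the same responses, so they are given as a description. Over all genes smoke was called for 22.4% in the wild type and 15.5% in the knockout.

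Genes were named here if their mean was at least 1 log2 CPM in 1 group and they had no predicted-gene name, which leaves out Gm4285. The 10 such genes of smallest p with a positive difference were Ube3a, Klhl24, Ocln, Ttbk2, Kctd12b, Atp13a3, Rbms3, Atxn1, Rb1cc1 and Ccdc88a. None of them passed the threshold. In all of them the wild-type mean was lower with smoke, and 9 of the wild-type responses passed the test for smoke in that genotype. Rbms3 was the exception, with an adjusted p = 0.059. Only Kctd12b (-0.30 log2 CPM, adjusted p = 0.044) and Rbms3 (3.49, adjusted p = 0.0083) passed in the knockout.

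Ube3a, the E3 ubiquitin ligase altered in Angelman syndrome, measured 6.83, 6.84, 7.11, 6.79 and 6.64 log2 CPM in wild-type air and 6.24, 6.05, 5.94, 5.91 and 5.70 in wild-type smoke. In the knockout it measured 6.65, 6.54, 6.27, 6.15 and 6.53 in air and 6.11, 6.41, 6.39, 6.62 and 6.57 in smoke. The wild-type groups did not overlap, and the knockout groups did. The response was -0.87 in the wild type and -0.01 in the knockout, a difference of 0.87 ± 0.16 (SE) with an adjusted p = 0.051. Klhl24, a Kelch-like adaptor of cullin-3 ubiquitin ligases, lay between 7.58 and 7.95 in wild-type air and between 6.93 and 7.43 in wild-type smoke, with no overlap. It lay between 7.45 and 7.72 in knockout air and 7.51 and 7.71 in knockout smoke, and its interaction was 0.63 ± 0.12 (SE; adjusted p = 0.051).

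Ocln encodes occludin, a tight junction protein. It measured 5.35, 5.35, 5.98, 5.38 and 5.58 log2 CPM in wild-type air and 4.48, 4.52, 3.64, 4.72 and 4.55 in wild-type smoke. In the knockout it measured 5.27, 5.01, 4.87, 4.68 and 5.28 in air and 4.90, 5.18, 5.49, 4.93 and 5.04 in smoke. Every knockout library lay below the lowest wild-type library in air, and every one lay above the highest wild-type library in smoke. The interaction was 1.23 ± 0.25 (SE; adjusted p = 0.076). Ttbk2, a kinase needed for the assembly of cilia, measured 4.31 to 4.78 in wild-type air, 2.78 to 3.52 in wild-type smoke, 2.98 to 4.19 in knockout air and 3.51 to 3.95 in knockout smoke. Its difference, 1.54 ± 0.31 (SE; adjusted p = 0.076), contained a lower level in knockout air, where genotype was called (-0.97, adjusted p = 0.041).

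The other genes of the group had values from 0.56 to 0.70, apart from Rbms3. Kctd12b, a KCTD family gene, had an interaction of 0.70 (adjusted p = 0.076). Atp13a3, a P-type ATPase of polyamine transport, stood at 0.61, Atxn1, the transcriptional regulator ataxin-1, at 0.58, and Rb1cc1, the autophagy initiation factor also known as FIP200, at 0.68. Ccdc88a, the actin-binding protein girdin, had 0.56, and genotype was called for it in air (-0.39, adjusted p = 0.044). Rbms3, an RNA-binding protein, was near the detection limit, at 1.83, 2.15, 3.33, 4.37 and 2.25 CPM in wild-type air and 2.46, 0, 0.225, 1.39 and 0.535 in wild-type smoke. It had 1.92, 0, 0, 1.31 and 0.248 CPM in knockout air and 3.67, 2.63, 3.95, 3.95 and 3.06 in knockout smoke, so its fitted difference of 5.91 log2 units depends on the value given to libraries at 0 reads. With 5 added to every CPM that difference was 0.98.

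**Figure D2:**
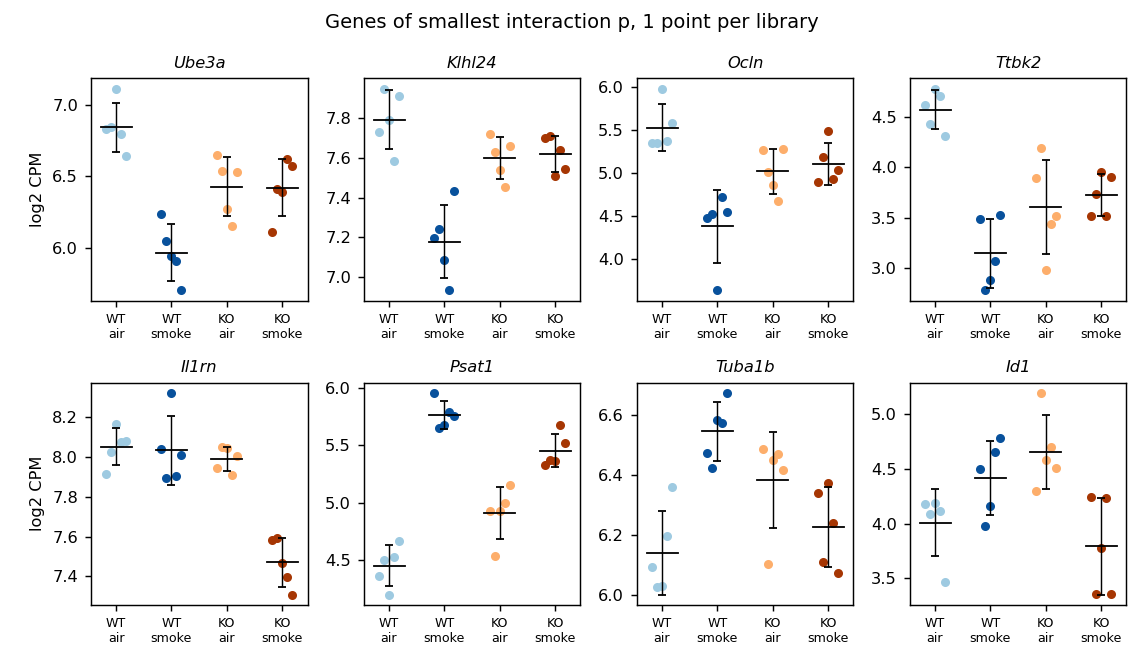
The plot of log2 CPM by library shows Ube3a, Klhl24, Ocln, Ttbk2, Il1rn, Psat1, Tuba1b and Id1, with 1 point per library, a bar at the mean and an error bar of 1 SD (n = 5) for wild-type (WT) and miR-155 knockout (KO) libraries. In the upper row the wild-type smoke points lie below all wild-type air points, and in the Il1rn panel the knockout smoke points, 7.31 to 7.60, lie below those of every other group.

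By the naming rule, the 10 genes of smallest p and negative difference were Il1rn, Sh3bgrl3, Psat1, Tuba1b, Id1, Ly6e, Hspbp1, Ifi30, Mrpl52 and Apoe. They were less alike than the positive ones: in some the wild type responded, in others the knockout did. Prss27 had a smaller p than Il1rn (-6.21, adjusted p = 0.076) but fell below the level of the rule, with 0 reads in wild-type air. Il1rn, the secreted antagonist of the interleukin-1 receptor, measured 7.91, 8.02, 8.16, 8.07 and 8.08 log2 CPM in wild-type air and 8.04, 7.89, 8.32, 7.90 and 8.01 in wild-type smoke. The knockout had 7.94, 8.05, 8.04, 7.91 and 8.001 in air and 7.59, 7.60, 7.47, 7.40 and 7.31 in smoke. Only the knockout smoke libraries stood apart, below all others, and smoke lowered the gene in the knockout (-0.52, adjusted p = 9.5e-06). The interaction was -0.50 ± 0.11 (SE; adjusted p = 0.090).

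Apoe, the lipid carrier apolipoprotein E, was also lowest in the knockout smoke group on average. It measured 5.96, 5.79, 5.33, 6.39 and 5.49 log2 CPM in wild-type air and 6.14, 4.74, 6.48, 5.35 and 6.17 in wild-type smoke. It measured 6.03, 5.91, 6.76, 5.45 and 5.90 in knockout air and 4.80, 4.53, 4.29, 4.62 and 4.70 in knockout smoke. The knockout groups did not overlap with each other, while wild-type smoke spanned more than the whole range of wild-type air. Its difference was -1.41 ± 0.35 (SE; adjusted p = 0.16). Ly6e, a GPI-anchored surface protein (-0.45), Mrpl52, a subunit of the mitochondrial ribosome (-0.97), Hspbp1, a cofactor of Hsp70 (-0.77), and Id1, an inhibitor of helix-loop-helix factors (-1.27), were also called lower with smoke in the knockout and not called in the wild type.

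In Psat1 the wild type responded more strongly. This enzyme of serine synthesis measured 4.36, 4.50, 4.20, 4.53 and 4.67 log2 CPM in wild-type air and 5.96, 5.65, 5.68, 5.79 and 5.76 in wild-type smoke. It measured 4.93, 4.54, 4.92, 5.00 and 5.15 in knockout air and 5.33, 5.37, 5.37, 5.67 and 5.52 in knockout smoke. Smoke raised it in both genotypes, by 1.31 (adjusted p = 3.7e-09) and 0.54 (adjusted p = 0.0022), and the difference was -0.77 ± 0.17 (SE; adjusted p = 0.12). Ifi30, a lysosomal thiol reductase (-0.57), and Tuba1b, an alpha-tubulin (-0.56), rose with smoke in the wild type and were not called in the knockout. Tuba1b has near-identical relatives whose reads the counting could have split. Sh3bgrl3, a small thioredoxin-fold protein (-0.45), was called higher in the wild type and lower in the knockout. None of the 20 differences changed sign under any of the alternatives that gave a value. On the linear CPM scale 20 of 20 had the same sign. The 20 genes were chosen for small p in these same libraries, which makes a change of sign unlikely. The stable signs are therefore no separate support for the differences.

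Transcript length moved with the interaction across the whole table. The 10 positive genes had longest annotated transcripts of 4052 to 11152 bases, and the 10 negative ones of 463 to 2617 bases. Across 8740 genes with an annotated transcript and a mean of at least 3 log2 CPM, r of the interaction with log2 length was 0.306, and with GC content -0.268, given as descriptions. Over 5 length bins, from the shortest to the longest, the median interaction ran -0.117, -0.048, 0.008, 0.061 and 0.118 log2 CPM. The wild-type smoke response carried most of that trend, with medians of 0.103 in the shortest and -0.197 in the longest bin, against -0.007 and -0.086 in the knockout. The longest bin held 267 positive and 19 negative genes at an unadjusted p under 0.05, and the shortest 27 positive and 227 negative.

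The same trend was visible library by library. The slope of a library's level on length, in log2 CPM per doubling of length, was 0.019 to 0.050 in wild-type air and -0.104 to -0.018 in wild-type smoke. It was -0.042 to 0.064 in knockout air and -0.023 to 0.047 in knockout smoke. Library IIa5 had the slope nearest 0 in wild-type smoke, and IIIb3 was the only knockout air library with a negative slope. With the length trend removed from each library, 0 genes were called and 1070 had an unadjusted p under 0.05. Ube3a then stood at 0.71, Klhl24 at 0.50, Sh3bgrl3 at -0.30 and Il1rn at -0.47.

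**Figure D3:**
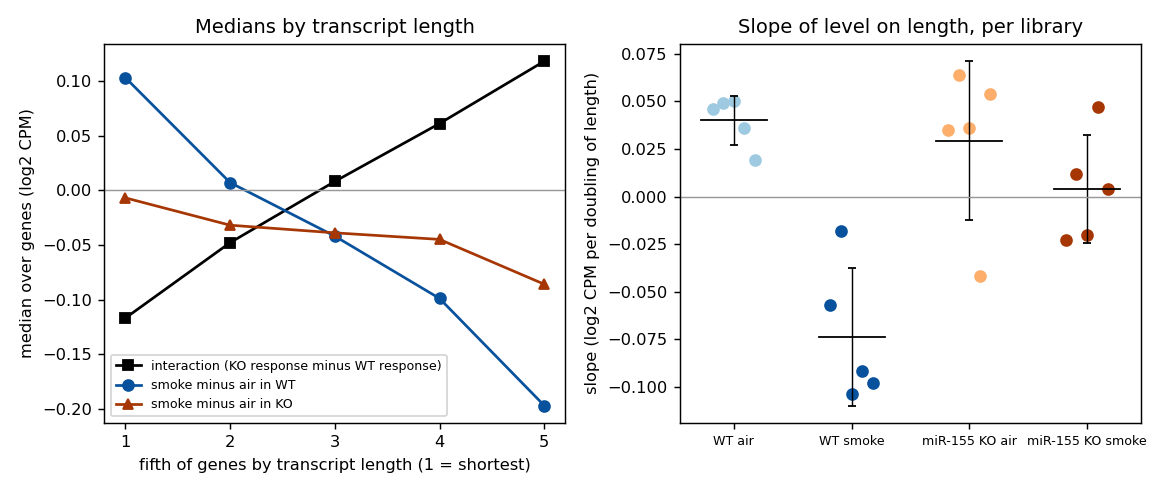
Left: median over genes of the interaction and of the smoke response in each genotype (log2 CPM), by transcript length bin from shortest to longest; the interaction runs from -0.117 to 0.118. Right: slope of level on transcript length in each library (log2 CPM per doubling of length), with group means and SD (n = 5); the wild-type smoke libraries have the lowest mean.

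Groups of short, abundant housekeeping genes were shifted towards negative values. The median interaction over all genes was 0.023, and 4.3% of all genes were negative at an unadjusted p under 0.05. Of 82 cytosolic ribosomal protein genes, 0 were called, 1 was positive and 26 were negative at an unadjusted p under 0.05, and the median was -0.166. Examples were Rpl36 (-0.46), Rpl23a (-0.33) and Rps19 (-0.26), whose reads may be shared with pseudogenes. Of 81 nuclear genes of the respiratory chain, 0 were called and 24 were negative at that threshold, with a median of -0.185. Cox5a, a subunit of cytochrome oxidase, had -0.35, and Ndufb6, of complex I, -0.60.

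The other groups of this kind had similar medians. The 38 proteasome subunits had 0 called, 9 negative and 0 positive at an unadjusted p under 0.05, and a median of -0.185; Psmb2 had -0.41 and Psma4 -0.39. The 74 mitochondrial ribosomal proteins had 0 called and 8 negative, with a median of -0.186. Of 22 genes of glycolysis and hypoxia 0 were called and 6 were negative, with a median of -0.268, among them Gapdh (-0.30), Eno1 (-0.30), Ldha (-0.28) and Pkm (-0.26). With the length trend removed, the negative members at that threshold were 1 of 82 cytosolic ribosomal proteins, 4 of 81 respiratory chain genes, 2 of 38 proteasome subunits, 6 of 74 mitochondrial ribosomal proteins and 5 of 22 glycolysis genes. Without IIIb2, IIIb3 and IIIb4 they were 6, 9, 5, 5 and 5, and without IIb1 alone 16, 10, 6, 6 and 4. Without IIb2 and IVb4 they were 12, 9, 6, 5 and 5.

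Genes of histone lysine methylation and zinc finger genes had medians above that of all genes. Of 36 histone lysine methyltransferases and demethylases 0 were called, 7 were positive and 0 negative at an unadjusted p under 0.05, with a median of 0.114. The methyltransferase Kmt2a lay between 7.29 and 7.48 log2 CPM in wild-type air, 6.67 and 6.83 in wild-type smoke, 7.13 and 7.52 in knockout air and 7.01 and 7.23 in knockout smoke. Smoke changed it in both genotypes, by -0.61 (adjusted p = 2.5e-07) and -0.21 (adjusted p = 0.042), and the interaction was 0.39 (adjusted p = 0.17). Kmt2c had 0.39, Nsd3 0.37 and Kmt2e 0.31. Of 305 zinc finger proteins, which are mostly transcriptional repressors of repeats and genes, 12 were positive and 3 negative, with a median of 0.128. That is 4.9% of them, below the 9.84% of all genes. With the length trend removed the histone enzymes had 3 positive members and a median of -0.001, and the zinc finger genes 8 positive and 3 negative ones.

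**Figure D4:**
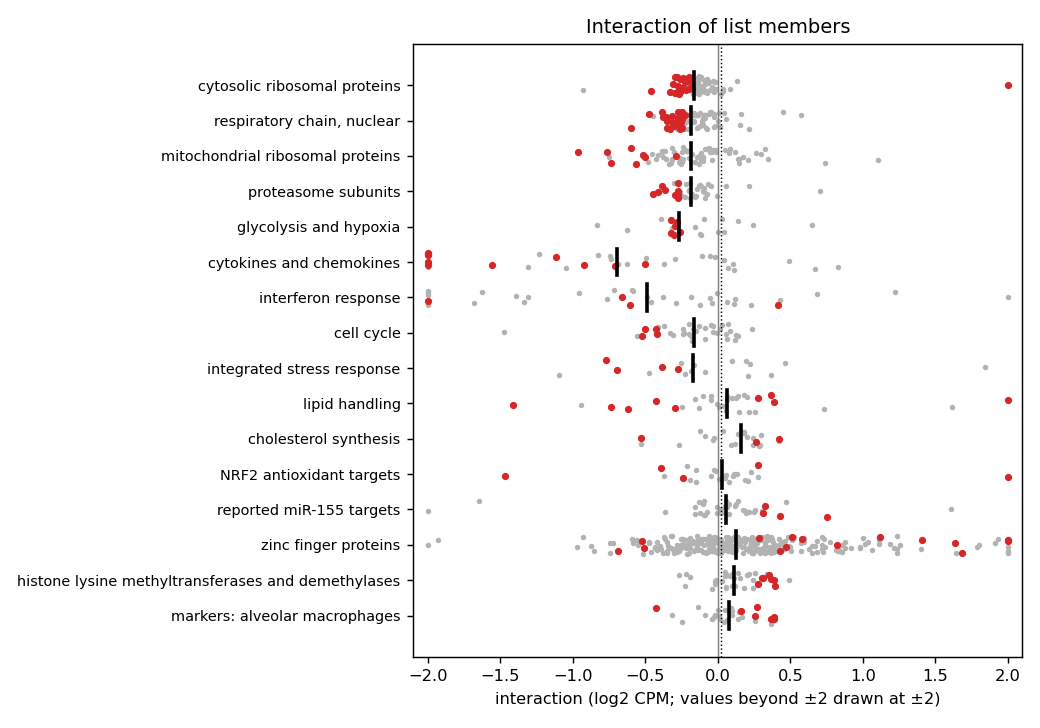
Each point is the interaction (x axis, log2 CPM, values beyond 2 drawn at 2) of 1 member of the gene list named on the y axis, in red where its unadjusted p was under 0.05; black bars are list medians and the dotted line the median over all genes. The ribosomal, respiratory chain and proteasome lists have medians of -0.166, -0.185 and -0.185, and no member of any list passed the adjusted threshold.

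Cytokine genes had the most uneven counts of the lists made for immune functions. Of 32 cytokine and chemokine genes 0 were called, 0 were positive and 10 negative at an unadjusted p under 0.05, against 9.84% of all genes in either direction. The median was -0.695, and -0.72 with the groups at 0 reads in every library set to 3 reads. With the length trend removed 9 were negative, and without IIIb2, IIIb3 and IIIb4 11 were. Without the wild-type smoke library IIb1 7 were negative, and the median was -0.523. The direction of change with smoke was not shared by these genes.

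Tnf, which encodes the inflammatory cytokine TNF, measured 4.22, 4.54, 4.95, 5.20 and 4.91 log2 CPM in wild-type air and 3.73, 4.04, 3.96, 3.78 and 4.08 in wild-type smoke. In the knockout it measured 5.30, 4.66, 5.26, 4.74 and 4.66 in air and 3.48, 3.21, 2.75, 2.87 and 2.52 in smoke. In neither genotype did air and smoke overlap, and smoke changed it by -0.85 (adjusted p = 0.0029) and -1.96 (adjusted p = 4.7e-08). The interaction was -1.12 ± 0.29 (SE; adjusted p = 0.17). Spp1, the secreted matrix protein osteopontin, moved the other way, from 8.54 to 8.72 in wild-type air to 9.62 to 10.93 in wild-type smoke, and from 8.51 to 8.77 in knockout air to 9.12 to 9.79 in knockout smoke. Its interaction was -0.71 (adjusted p = 0.27), and -0.53 without the wild-type smoke library IIb1. Ccl17, a chemokine for T cells, had -1.56 and Pdgfb, a growth factor of mesenchymal cells, -2.51, both at low levels.

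The complement genes C1qa, C1qb and C1qc, Arg1, Mmp12 and Adam8 were raised by smoke in the wild type. C1qa had 0 CPM in all 5 wild-type air libraries and 14.5, 3.46, 42.9, 8.90 and 18.7 CPM in wild-type smoke. It had 0.418, 0, 0, 1.31 and 0.371 CPM in knockout air and 2.64, 4.27, 0.682, 0 and 2.15 in knockout smoke. The wild-type smoke mean of 17.7 CPM was at least 49.2-fold higher than 3 reads in the shallowest wild-type air library would give. The fitted interaction, -5.86 (adjusted p = 0.16), depends on the prior count of 0.5 reads, and it was -3.27 with wild-type air at 3 reads per library. C1qb and C1qc had fitted values of -3.88 (adjusted p = 0.38) and -4.62 (adjusted p = 0.34).

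Arg1, the arginase of alternatively activated macrophages, and the metalloprotease Mmp12, which degrades elastin, also had their highest wild-type smoke level in IIb1. Arg1 had 4.57, 0.892, 8.21, 1.29 and 2.14 CPM in wild-type smoke, 0 in wild-type air, at most 0.0837 in knockout air and at most 0.803 in knockout smoke. Mmp12 measured 2.41 to 3.41 log2 CPM in wild-type air, 5.88 to 8.52 in wild-type smoke, 1.83 to 3.65 in knockout air and 4.19 to 6.37 in knockout smoke. Smoke raised it in both genotypes, by 4.50 (adjusted p = 6.1e-10) and 2.91 (adjusted p = 2.2e-06), and the difference was -1.58 ± 0.54 (SE; adjusted p = 0.31). The metalloprotease Adam8 had -1.70 (adjusted p = 0.39). Of 19 matrix proteases and inhibitors 0 were called, and 1 was positive and 2 negative at an unadjusted p under 0.05. That is 15.8% of them, against 9.84% of all genes, and the median was -0.139. The positive one was Adam10, a protease that sheds membrane proteins, which smoke lowered in the wild type (-0.34, adjusted p = 0.0017), with an interaction of 0.35 (adjusted p = 0.29).

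Some markers of other cell types were higher in wild-type smoke than in knockout smoke, and others were not. Il7r, 1 of 2 T and NK cell markers with values out of 14 listed, stood at 12.5, 7.36, 39.3, 9.65 and 23.8 CPM in wild-type smoke and at 0.642 to 6.08 CPM in knockout smoke. IIb1 was the highest wild-type smoke library, and IIa5 the lowest, for Il7r, C1qa, C1qb, C1qc, Mmp12, Arg1 and Adam8. The summed level of 14 measured markers of monocytes and interstitial macrophages, which include Apoe and the C1q genes, was 550 to 937 CPM in wild-type smoke and 563 to 692 in knockout smoke. In air it was 706 to 856 CPM in the wild type and 756 to 978 in the knockout. The list had 0 called, and 0 positive and 4 negative members at an unadjusted p under 0.05 (28.6%, against 9.84% of all genes). The 4 were Apoe, C1qa, C1qb and C1qc. By sign alone, 5 of the 14 interactions were positive and 9 negative. The median was -0.982, or -0.452 with the groups at 0 in every library set to 3 reads. The neutrophil marker S100a9 had 0 reads in every air library, 81 over wild-type smoke and 4 over knockout smoke. Over the 6 neutrophil markers measured, S100a9 included, 4 interactions were positive and 2 negative, with a median of 0.09. Their summed level was 240 ± 81.2 CPM in wild-type smoke and 217 ± 63.3 in knockout smoke, against 110 ± 13.8 and 112 ± 19.3 in air (SD, n = 5). In sorted bulk samples more cells of a type and more RNA per cell cannot be told apart, and the part of these cell types in the differences was not tested. Without IIb1 the fitted values were -5.43 for C1qa, -3.71 for Arg1 and -1.29 for Mmp12.

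**Figure D5:**
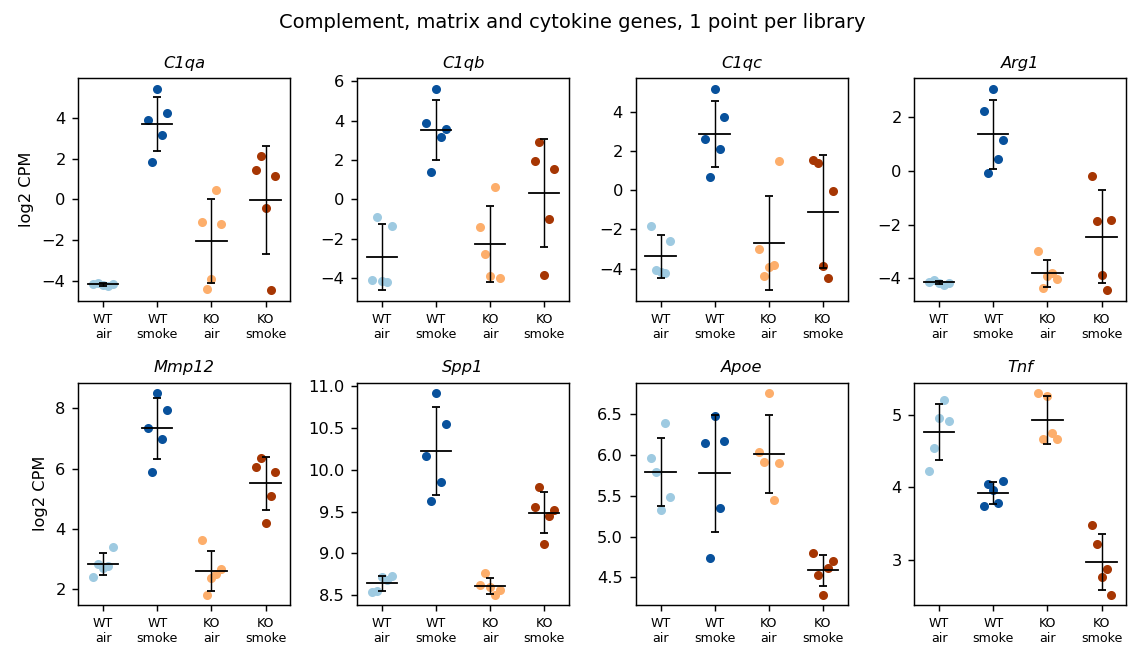
The plot of complement, matrix and cytokine genes shows log2 CPM of C1qa, C1qb, C1qc, Arg1, Mmp12, Spp1, Apoe and Tnf in each library, with the mean and an error bar of 1 SD (n = 5) for wild-type (WT) and miR-155 knockout (KO) libraries; values near -4 are libraries with 0 reads. Mmp12 and Spp1 are higher with smoke in both genotypes, Tnf is lower in both, and Apoe is lower with smoke in the knockout, where it lies between 4.29 and 4.80.

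Lipid genes went both ways. Of 34 lipid handling genes 0 were called, and 4 were positive and 5 negative at an unadjusted p under 0.05. That is 26.5% of them, against 9.84% of all genes, and the median was 0.06. The desaturase Scd1, which makes monounsaturated fatty acids, measured 6.19, 6.55, 5.64, 6.63 and 6.28 log2 CPM in wild-type air and 7.34, 6.91, 7.07, 7.16 and 7.19 in wild-type smoke. It measured 5.95, 6.06, 6.12, 5.58 and 5.85 in knockout air and 5.87, 5.87, 6.203, 6.19 and 6.16 in knockout smoke. Smoke raised it in the wild type (0.88, adjusted p = 1.5e-05), and the knockout groups overlapped (0.14, adjusted p = 0.53). The interaction was -0.73 ± 0.19 (SE; adjusted p = 0.17), and -0.81 with the length trend removed. Its paralog Scd2 had -0.42. Cidec, a lipid droplet protein, changed with smoke by -1.30 in the wild type and -0.94 in the knockout, an interaction of 0.36 (adjusted p = 0.30). Of 23 genes of cholesterol synthesis 2 were positive, Hmgcs1 (0.42) and Srebf2 (0.27), and 1 negative, Pmvk (-0.53). Together they were 13.0% of that list, against 9.84% of all genes.

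Interferon response genes had a low median that depended on the libraries used, and a share at the unadjusted threshold near that of all genes. Of 35 measured, 0 were called, 1 was positive and 3 negative (11.4%, against 9.84% of all genes), with a median of -0.49. Dhx58, a cytoplasmic RNA sensor, had -0.66, and Bst2, the tethering factor tetherin, -0.61. Without IIb1 the median was -0.193, with 2 positive and 2 negative members, and without IIa5 there were 1 and 8. Without IIIb2, IIIb3 and IIIb4 there were 0 positive and 9 negative members, and without IIb2 and IVb4 the median was -0.29. Only 2 of 11 listed MHC class II genes had values, and both were negative, Cd74, the invariant chain, at -0.73 (adjusted p = 0.39) and Ciita, the transactivator of the class, at -0.97 (adjusted p = 0.41). Without IIb1 neither was at an unadjusted p under 0.05.

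The lists of the integrated stress response, the unfolded protein response and antioxidant genes had shares of 11.8% to 22.2% at that threshold. Over all genes the share was 9.84%, and of 12 heat shock chaperones 0 were at that threshold. Of 18 genes of the integrated stress response 0 were called, 0 were positive and 4 negative, Psat1, Atf4, Atf3 and Aldh18a1. Atf4, the transcription factor of the pathway, lay between 7.36 and 7.54 log2 CPM in wild-type air, 7.43 and 7.72 in wild-type smoke, 7.34 and 7.61 in knockout air and 7.08 and 7.44 in knockout smoke. Smoke lowered it in the knockout (-0.28, adjusted p = 0.0084), and the interaction was -0.38 (adjusted p = 0.23). Of 17 genes of the unfolded protein response 2 were positive and 0 negative: Dnajb9, a chaperone of the endoplasmic reticulum, at 0.70 (adjusted p = 0.36) and Sel1l, of its degradation machinery, at 0.22 (adjusted p = 0.41). Of 24 targets of NRF2, the regulator of antioxidant genes, 2 were positive and 3 negative, and 1 and 1 without IIb1. Nqo1, a quinone reductase, fell with smoke in the knockout (-1.66, adjusted p = 0.0078), with an interaction of -1.47 (adjusted p = 0.40). Its level was low, with 60 reads in all over knockout smoke. The other negative members were Prdx6, a peroxidase, at -0.39 and Ftl1 at -0.24. The positive ones were Cat at 0.28 and Me1, also at a low level, at 3.61, and the median of the list was 0.029. Of 36 cell cycle genes 4 were negative (11.1%, near the share over all genes), and 1 without IIIb2, IIIb3 and IIIb4. The 4 were the mitotic cyclins Ccnb2 (-0.53) and Ccna2 (-0.50) with Rrm2 (-0.43) and Aurkb (-0.42). Those 4 rose with smoke in both genotypes.

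Reported targets of miR-155 had a share at the unadjusted threshold near that of all genes when both directions were counted. Of 39 measured, 0 were called, and 4 (10.3%) were at an unadjusted p under 0.05, against 9.84% of all genes. All 4 were positive, and over all genes 5.54% were positive and 4.3% negative at that threshold. The median was 0.06, and 25 were positive and 14 negative. With the length trend removed 2 were positive and 1 negative at an unadjusted p under 0.05, and the median was 0.028. An 8-base match was found in 18 of the 39 longest 3′UTRs and a 7-base match alone in 4. Bach1, a repressor of heme oxygenase whose site is printed above, measured 7.60, 7.63, 7.94, 7.70 and 7.79 log2 CPM in wild-type air and 7.37, 7.32, 7.19, 7.22 and 7.20 in wild-type smoke. It measured 7.71, 7.46, 7.42, 7.32 and 7.86 in knockout air and 7.31, 7.46, 7.42, 7.56 and 7.31 in knockout smoke. The wild-type groups did not overlap and the knockout groups did, and the interaction was 0.33 (adjusted p = 0.35). With the length trend removed it was 0.23.

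The other members at that threshold had different shapes. Trp53inp1, a stress protein of autophagy and cell death, rose with smoke in the knockout (0.82, adjusted p = 0.0021), with an interaction of 0.76 (adjusted p = 0.32). Tcf7l2, a transcription factor of the Wnt pathway, fell in the wild type (-0.49, adjusted p = 6.8e-04), with an interaction of 0.31 (adjusted p = 0.48). Hbp1, a repressor of cell cycle genes, had 0.43 (adjusted p = 0.25) and no match in its longest 3′UTR. Inpp5d, the phosphatase SHIP1, had -0.16 (95% interval -0.36 to 0.05), Spi1, the myeloid transcription factor PU.1, -0.08 (-0.28 to 0.13), and Cebpb -0.09 (-0.37 to 0.19). Jarid2, a cofactor of Polycomb, had 0.30 (-0.17 to 0.77). Socs1 was too low to bound, with an interval of -3.90 to 3.17.

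Genes with a seed match in the 3′UTR had a higher median interaction than genes without one, and they also had longer 3′UTRs. The 8-base match AGCATTAA was present on the messenger strand in 301 (3.49%) of the genes with a 3′UTR and a mean of at least 3 log2 CPM. The 7-base match AGCATTA, which every 8-base match contains, was present alone in 530 (6.15%). The median interaction was 0.084 with the 8-base match, 0.092 with the 7-base match alone and -0.002 with neither. Their median 3′UTR lengths were 2729, 2806 and 1130 bases. Genes were also split into 3 bins by 3′UTR length, and in the bin of the longest the medians were 0.133, 0.122 and 0.08, and in the middle bin 0.033, 0.01 and 0.007. In the shortest bin they were 0.008 with the 8-base match (26 genes), -0.026 with the 7-base match alone (41 genes) and -0.077 with neither. No test was made of these medians.

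The remaining lists made for this tissue differed in their share at the unadjusted threshold, which was 9.84% over all genes. Of 19 autophagy genes, 12 heat shock chaperones and 6 genes of the aryl hydrocarbon receptor axis, 0 were at an unadjusted p under 0.05. The median interaction of the autophagy list was 0.06, with values from -0.22 to 0.28. The 30 lysosomal genes ran from -0.25 to 0.37, with 2 positive and 2 negative members (13.3%). Cd68, a lysosomal membrane glycoprotein, was raised by smoke in both genotypes (0.91 and 0.69), with an interaction of -0.22 (adjusted p = 0.34), and Lamp2 had 0.37. Of 28 alveolar macrophage markers 6 were positive and 1 negative (25.0%), and 4 and 1 without IIb1, with a median of 0.075 over all libraries: Ptprc, the surface phosphatase CD45 used in the sort, had 0.39, and Car4, a carbonic anhydrase that smoke raised in both genotypes, -0.43.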

How the data were processed

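Poly(A) RNA from 20 libraries of sorted alveolar macrophages was sequenced. Per the labels, RNA was extracted with the miRNeasy kit and 25 ng entered TruSeq mRNA libraries. Per the submitters' processing notes, STAR 2.6.0c, limma and GRCm38.p6 were used; no source used here names the counter, the annotation or a low-count filter. The authors deposited 1 table of log2 CPM values per gene and library, and the deposited values follow log2((reads + 0.5)/(total + 1) × 1e6): reads recovered from them deviated from whole numbers by less than 0.001 for every value, with no further scaling.

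limma 3.58.1 (R 4.3.3) was fitted to the deposited values of all 20 libraries with 4 group means and a mean-variance trend. The interaction contrast was tested for all 13225 genes with Benjamini-Hochberg adjustment and called at an adjusted p under 0.05. Fold changes are on the log2 scale with 0.5 reads added. Members, lists and tests were chosen with earlier results of these data known.

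The genes named are the 10 of smallest p in each direction with a mean of at least 1 log2 CPM in 1 group and no predicted-gene name. From each list those at an unadjusted p under 0.05 among the 4 of smallest p were also eligible, and Mir155hg always was. Spi1, Cebpb, Inpp5d, Jarid2, Socs1 and Il7r were added after their values were seen. Transcript lengths and 3′UTRs came from the longest protein-coding transcript in the GENCODE annotation of GRCm38, matched by symbol for 12657 genes; miRNA sequences are from RefSeq. Alternatives covered variance priors, normalization, filters, pseudocounts, weights, a covariate for the letter in the library code, and libraries left out. Removing length and GC trends (loess, span 0.5), and leaving out IIb2 and IVb4, were chosen after seeing the data. IIb2 and IVb4 had the largest shares of reads in the gene Gm42418, 0.874% and 3.20%, against at most 0.604% in any other library.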

Additional observations from a re-analysis of the deposited data

Results flagged for a closer look

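In 7 of 96 groups of 5 libraries looked at, 1 library stood far from the other 4; chance gives this in about 1 in 20 groups. Ocln was 3.64 log2 CPM in the wild-type smoke library IIb1, against 4.48 to 4.72 in the other libraries of that group. The knockout air library IIIb1 was apart for Rb1cc1, at 6.17 against 5.57 to 5.73, and for Tuba1b, at 6.10 against 6.42 to 6.48. Id1 was 3.47 in the wild-type air library Ib4, against 4.09 to 4.19. Hspbp1 was 4.71 in the wild-type smoke library IIa5, against 5.14 to 5.30, and Mrpl52 was 4.99 in the wild-type air library Ib2, against 4.47 to 4.56. The slope of level on transcript length was -0.04 in the knockout air library IIIb3, against 0.04 to 0.06 log2 CPM per doubling of length in the other 4.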

How the results depend on the processing

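The count of genes called was 0 with voom weights on the recovered reads, with the letter of the library code as a covariate, without IIIb2, IIIb3 and IIIb4 together, and in the 3 alternatives chosen after seeing the data. It was 1 with array weights (1 positive), 2 with median centring (2 positive), 2 with a robust variance prior (2 positive), 2 with a mean of at least 1 log2 CPM (2 positive), 3 with quantile normalization (3 positive), 4 with a mean of at least 3 (4 positive), 4 with log2 of CPM plus 1 (4 positive), 6 with CPM plus 5 (6 positive) and 3 without a variance trend (1 positive, 2 negative). Leaving out 1 library gave 0 to 42 genes, with 0 to 30 positive and 0 to 12 negative. The highest count came without the wild-type smoke library IIa5 (42), followed by the knockout air libraries IIIa5 (19) and IIIb1 (10); the cause was not tested. Ube3a was called under 12 of 35 alternatives and Klhl24 under 13. The genes at an unadjusted p under 0.05 numbered 1015 to 1582 over all alternatives.

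The median interaction of genes lowered by smoke on average, 0.081, was 0.047 with the length trend removed, 0.051 with length and GC trends removed, and 0.062 to 0.112 when 1 library was left out, the highest without IIa5. For the 20 genes named by smallest p, 698 values under alternatives held 0 changes of sign, and 59 passed the threshold. Choosing genes by small p in the same libraries makes a change of sign unlikely, so that count is a description only. No paired analysis was possible because no library code is shared between groups. For most genes under 3 log2 CPM the intervals were too wide to bound a 2-fold difference, and the cause of that width was not tested.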
